A study of Mus musculus with 6 samples.

Results

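The genes described here are those that hold, escort and cleave the sterol regulatory element-binding proteins (SREBPs) of the liver cell. They are Insig2 and Insig1, the escort gene Scap, the SREBP genes Srebf1 and Srebf2, and the genes of site-1 and site-2 protease, Mbtps1 and Mbtps2. They were chosen by name, as known parts of this machinery, and with earlier results of these data known. All 7 were measured, among 22180 genes with a probe set of their own. Scap had 2 such probe sets, of which the brighter was used. The genes were measured in mouse primary hepatocytes from wild-type adult male C57Bl/6 mice, cultured without serum. The 2 groups of 3 arrays each are cells given GW4064 at 2 µM for 4 h and cells given the solvent DMSO for the same time. GW4064 is a man-made ligand that activates FXR, the nuclear receptor for bile acids. The design text names 3 independent preparations of cells, and nothing states whether animals were pooled.

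SREBPs are made as membrane proteins of the endoplasmic reticulum. SCAP binds them, senses cholesterol and carries them to the Golgi, where site-1 and then site-2 protease release the part that enters the nucleus. When sterols are plentiful, the INSIG proteins hold SCAP and SREBP back. SREBP-2 mainly switches on genes of cholesterol synthesis and uptake, and SREBP-1c, the main liver product of Srebf1, those of fatty acid synthesis. Insig1 is itself a target of SREBP. In liver Insig2 also has a start site of its own that responds to hormones.

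The bases before the annotated starts of Insig2, Insig1 and Srebf2 are shown. These are the gene called higher with GW4064, its paralogue and the gene of the regulator of cholesterol synthesis. RefSeq (GRCm38.p6) gives Insig2 3 starts and the other 2 genes 1 start each. Of the Insig2 windows, only the outermost held a searched motif, and the innermost is not shown. Each sequence is the 250 bases before a start, in the direction of transcription, and capitals mark matches to the searched motifs on either strand. The Insig2 windows are at chr1:121332590-121332839 (minus strand) and chr1:121328025-121328274 (minus strand), the Insig1 window at chr5:28071162-28071411 (plus strand) and the Srebf2 window at chr15:82147019-82147268 (plus strand).
Insig2, outermost start: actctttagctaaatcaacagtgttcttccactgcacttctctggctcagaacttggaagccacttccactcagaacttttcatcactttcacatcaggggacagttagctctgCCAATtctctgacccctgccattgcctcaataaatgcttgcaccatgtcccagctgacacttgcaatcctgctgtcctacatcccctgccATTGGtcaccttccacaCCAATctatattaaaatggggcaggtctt
Insig2, next start: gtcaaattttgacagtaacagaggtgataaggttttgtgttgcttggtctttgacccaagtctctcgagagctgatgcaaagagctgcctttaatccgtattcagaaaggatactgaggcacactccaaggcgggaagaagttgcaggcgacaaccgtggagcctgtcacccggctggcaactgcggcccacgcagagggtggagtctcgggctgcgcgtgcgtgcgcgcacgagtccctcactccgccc
Insig1: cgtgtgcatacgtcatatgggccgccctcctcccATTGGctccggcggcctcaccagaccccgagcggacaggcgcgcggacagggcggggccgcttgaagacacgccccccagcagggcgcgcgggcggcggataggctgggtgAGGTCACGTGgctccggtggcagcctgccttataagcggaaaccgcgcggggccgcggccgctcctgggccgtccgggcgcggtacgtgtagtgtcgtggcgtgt
Srebf2: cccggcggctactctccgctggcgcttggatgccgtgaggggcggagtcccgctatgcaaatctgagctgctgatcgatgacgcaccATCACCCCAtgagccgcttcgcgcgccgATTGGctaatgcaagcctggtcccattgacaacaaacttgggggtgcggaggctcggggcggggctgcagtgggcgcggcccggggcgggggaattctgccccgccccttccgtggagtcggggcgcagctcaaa

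The letters ATCACCCCA, the core of a sterol regulatory element, occurred in the Srebf2 window, 163 bases before the start, and in 0.240% of 32851 such windows of mouse genes. No window of the other 6 genes held them. The Insig1 window held AGGTCA, the half-site of nuclear receptors (14.02% of all windows), overlapping the E-box CACGTG (6.02%). The outermost Insig2 window held the NF-Y box CCAAT 3 times, and 33.8% of all windows held it at least once. The exact inverted repeat of the half-site with a single base between its arms (IR-1), a known FXR element, was in no window of the 7 genes and in 2 of all windows. These are matches of letters in short windows, and sites elsewhere in the genes were not searched.

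The FXR response itself was present on every treated array. Abcb11, the bile salt exporter, averaged 7.97 ± 0.17 with GW4064 and 4.88 ± 0.18 with DMSO (log2 intensity, mean ± SD, n = 3 arrays each, limma adjusted p = 3.70e-05). Nr0b2, the repressor SHP, averaged 6.89 ± 0.22 with GW4064 and 4.51 ± 0.06 with DMSO (adjusted p = 1.17e-04). Nr1h4, the gene of FXR, averaged 7.05 with GW4064 and 7.77 with DMSO and did not pass (adjusted p = 0.0535). The means of 8 hepatocyte markers lay at 10.8 to 10.9 on the GW4064 arrays and at 10.9 to 11.0 on the DMSO arrays. The means of 5 lists of other liver cell markers lay at 3.32 to 4.61 with GW4064 and at 3.38 to 4.67 with DMSO. Single markers of other cells ran from Cftr, at 2.08 with GW4064 and 2.29 with DMSO, to Sox9, at 7.76 and 7.31. The lowest hepatocyte marker, Ass1, read 5.10 and 5.32. Levels of different genes come from different probes and are not comparable, so these means give no measure of purity. None of the 31 measured markers of other cells was called in limma with or without the replicate block. Without the block 1 of them, the bile duct gene Sox9, had an unadjusted p under 0.05 (difference 0.45, SE 0.17, higher in all 3 same-numbered pairs), against 5.66% of all genes. With the block 3 did, Sox9, Pecam1 (0.27) and Tek (-0.27), the last 2 being endothelial genes, or 9.68% of the markers against 9.13% of all genes. Their part in the results below was not tested.

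Insig2 was the 1 gene of the 7 that was called, and it was higher with GW4064. Its level was 9.74, 9.76 and 9.69 on the GW4064 arrays of replicates 1, 2 and 3, against 8.88, 8.81 and 8.89 on the DMSO arrays (log2 intensity of probe set 17226346). Insig2 had this 1 probe set, so transcripts from its 3 starts were not told apart. The groups lay far apart, and the arrays within each group were close together. The rise was 0.87 on the log2 scale (SE 0.09), or 1.83-fold with a 95% interval of 1.60 to 2.10 (limma adjusted p = 0.0177 over all genes). The differences in the same-numbered pairs were 0.86, 0.95 and 0.80. Of all genes, 0.0496% were called higher and 0% lower at this threshold, and Insig2 had the 4th smallest p. A change at least as large in either direction was found in 27 genes, or 0.122%. With the replicate number as a block the call held (adjusted p = 0.0384), and 0.0812% of all genes were called in that fit, 0.0721% higher and 0.00902% lower. By mean alone 4 of the 7 genes were higher, against 44.6% of all genes.

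The Insig2 call needs all 6 arrays and the test over named genes. Without any single array the change was 0.85 to 0.89 and the adjusted p 0.0734 to 0.166, for each of the 6 arrays. Over all 41345 probe sets in the table, named or not, the adjusted p was 0.147 for the same change.

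Insig1, the paralogue whose protein holds SCAP in the same way, did not pass the test. Its level was 9.62, 9.14 and 9.04 with GW4064, against 9.49, 8.56 and 8.55 with DMSO. The replicate 1 array is the highest in each group, and the groups overlap through DMSO replicate 1, which lies above GW4064 replicates 2 and 3. The mean difference was 0.40 (SE 0.26, 95% interval -0.18 to 0.98, adjusted p = 0.961). All 3 same-numbered pairs were higher with GW4064, by 0.13, 0.58 and 0.49. With the replicate block the SE was 0.11 and the adjusted p 0.387, and the unadjusted p 0.00927, in a fit where 9.13% of all genes had an unadjusted p under 0.05. Insig1, Insig2 and Srebf2 were higher in every pair, as were 12.6% of all genes. The Insig1 difference was 0.72 without DMSO replicate 1, and 0.22, 0.25 and 0.24 without GW4064 replicate 1, DMSO replicate 2 and DMSO replicate 3.

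**Figure D1:**
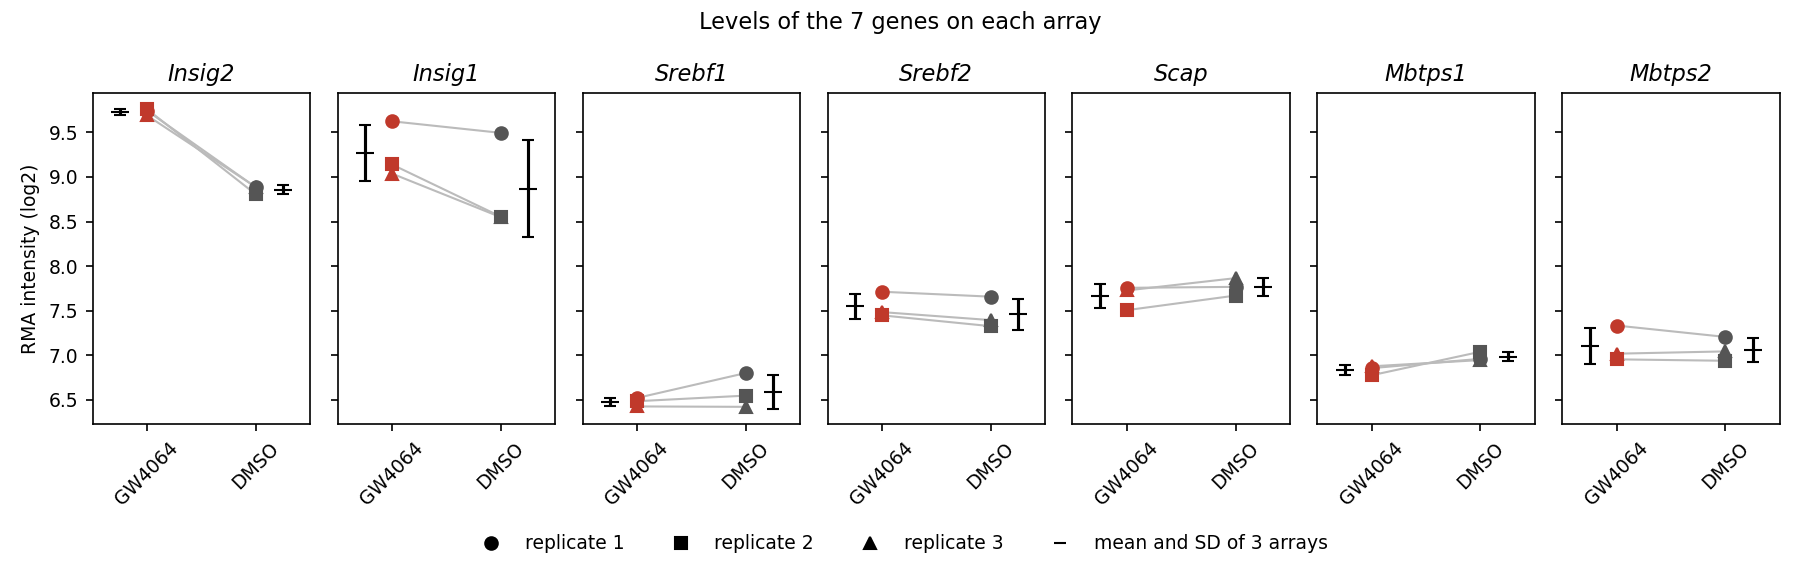
Levels of the 7 genes on each array (log2 RMA intensity), with GW4064 left and DMSO right in each panel, a symbol for each replicate number, grey lines joining same-numbered arrays, and bars for the mean and SD of 3 arrays. Insig2 lies at 9.69 to 9.76 with GW4064 and at 8.81 to 8.89 with DMSO, whereas the Insig1 groups overlap; levels of different genes come from different probes and are not comparable.

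Srebf1, which encodes SREBP-1, had levels of 6.52, 6.48 and 6.42 with GW4064, against 6.80, 6.55 and 6.42 with DMSO. The DMSO array of replicate 1 was the highest, and the groups overlap. The difference was -0.11 (SE 0.11, 95% interval -0.37 to 0.15, adjusted p = 0.998). It was -0.0073 without DMSO replicate 1 and -0.20 without DMSO replicate 3. The probe set covers the gene as a whole, so SREBP-1a and SREBP-1c transcripts were not told apart.

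Srebf2, which encodes SREBP-2, had 7.71, 7.45 and 7.48 with GW4064, against 7.66, 7.33 and 7.39 with DMSO. Replicate 1 was again the highest in both groups, and the groups overlap. The difference was 0.09 (SE 0.12, 95% interval -0.19 to 0.36, adjusted p = 0.998). With single arrays left out it was between 0.0066, without GW4064 replicate 1, and 0.19, without DMSO replicate 1. The pairs differed by 0.06, 0.12 and 0.09, each higher with GW4064. The microRNA gene Mir33 lies within Srebf2, and its product miR-33 is known to repress the cholesterol exporter gene Abca1. The mature sequence is given with its seed, bases 2 to 8, in capitals (RefSeq, GRCm38.p6, chr15:82198127-82198147, plus strand).
mmu-miR-33-5p: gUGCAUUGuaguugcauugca
The Mir33 probe set read 2.25, 2.07 and 1.98 with GW4064, against 1.98, 2.36 and 2.15 with DMSO, and 5% of genes had a mean level below 1.90. No order of the groups can be read from it (adjusted p = 0.998).

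Scap, the escort, had 7.76, 7.50 and 7.73 with GW4064, against 7.77, 7.67 and 7.86 with DMSO. The groups overlap, and each pair was lower with GW4064, by -0.01, -0.16 and -0.14. The difference was -0.10 (SE 0.11, 95% interval -0.35 to 0.14, adjusted p = 0.998). With single arrays left out it was between -0.15, without DMSO replicate 2, and -0.03, without GW4064 replicate 2. The dimmer Scap probe set, 17531531, averaged 3.75 ± 0.18 with GW4064 and 3.75 ± 0.11 with DMSO, with a difference of -0.0023. Neither probe set was called. Scap and Mbtps1 were the 2 genes lower in every pair, as were 18.6% of all genes.

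Mbtps1, the gene of site-1 protease, had 6.85, 6.77 and 6.87 with GW4064, against 6.96, 7.04 and 6.94 with DMSO. All GW4064 arrays lay below all DMSO arrays. The difference was small, at -0.15 (SE 0.09, 95% interval -0.35 to 0.06), and did not pass (adjusted p = 0.961). Groups that do not overlap were found in 10.8% of all genes, and in 2 of the 7 genes here, Insig2 and Mbtps1. All GW4064 arrays lay above all DMSO arrays in 4.58% of all genes and below them in 6.19%. Mbtps2, the gene of site-2 protease, had 7.33, 6.95 and 7.02 with GW4064, against 7.20, 6.94 and 7.04 with DMSO. The groups overlap almost fully, with a difference of 0.04 (SE 0.13, 95% interval -0.25 to 0.32, adjusted p = 0.998). For Srebf1, Srebf2, Scap, Mbtps1 and Mbtps2, the intervals leave room for a rise of up to 1.29-fold, the upper end for Srebf2, and a fall to 0.773 of the DMSO level, the lower end for Srebf1.

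**Figure D2:**
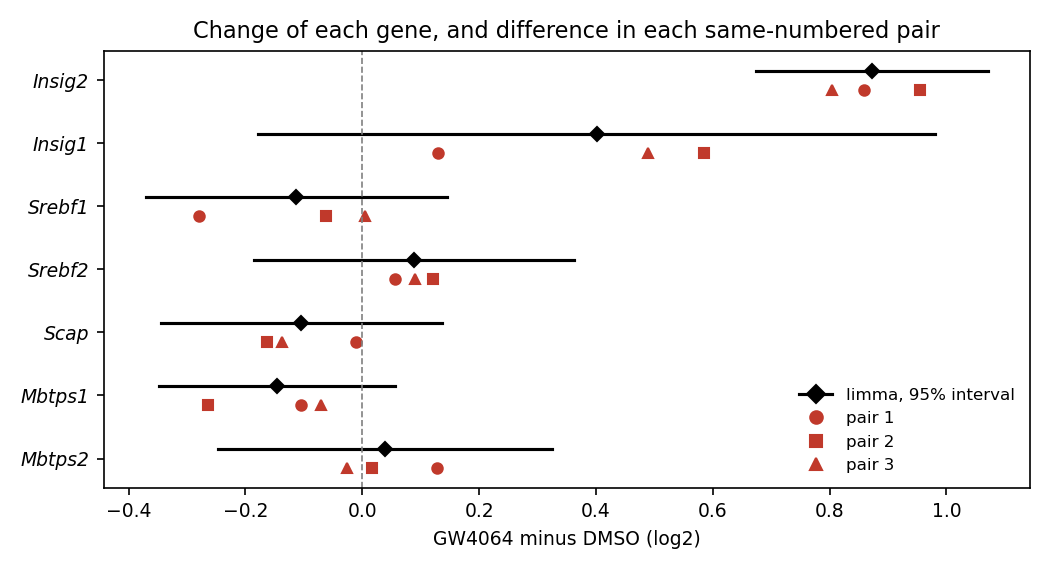
Change of each gene with GW4064 relative to DMSO (log2), with the limma estimate and its 95% interval in black and the 3 same-numbered pairs in red. The Insig2 interval runs from 0.67 to 1.07, and the intervals of the other 6 genes include 0.

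The within-array difference between Insig2 and each other gene was compared between the groups with a two-sided exact permutation test over the 6 arrays, where 0.1 is the smallest p possible. The change of Insig2 exceeded that of Mbtps1 by 1.02, of Srebf1 by 0.99, of Scap by 0.98, of Mbtps2 by 0.83 and of Srebf2 by 0.78, each on the log2 scale. In these 5 comparisons all GW4064 arrays lay above all DMSO arrays (exact p = 0.1 each, 0.14 after adjustment over 7 comparisons). The 5 reuse the same Insig2 values, so they are not separate results. Against Insig1 the difference was 0.47, and the arrays overlapped (exact p = 0.3, adjusted 0.3). The Insig2 minus Insig1 difference was 0.12, 0.62 and 0.65 with GW4064, against -0.61, 0.25 and 0.34 with DMSO. It was higher with GW4064 in all 3 same-numbered pairs, by 0.73, 0.37 and 0.31, and the unpaired test takes no account of the pairs. Without DMSO replicate 1 the difference was 0.17, and without each of the other arrays in turn it was 0.38 to 0.64. Srebf1 minus Srebf2 differed by -0.20 between the groups (exact p = 0.2, adjusted 0.233).

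The INSIG genes also differed in how they varied between replicate numbers. Averaged over the same-numbered GW4064 and DMSO arrays, Insig2 lay at 9.31, 9.28 and 9.29 in replicates 1, 2 and 3. That range of 0.031 was among the smallest 2.06% of all genes. Insig1 lay at 9.56, 8.85 and 8.79, a range of 0.767, at the 98.4th percentile of all genes. The ranges of Srebf1, Srebf2, Scap and Mbtps2 were 0.21 to 0.32, and that of Mbtps1 was 0.0034. The labels do not say what a replicate number marks beyond the title, and the preparation, the culture and the array cannot be told apart.

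Genes of cholesterol synthesis and uptake showed the same replicate pattern as Insig1. Of the 17 measured in a list of 23 SREBP-2 targets, 16 were highest in replicate 1 by these averages, as Insig1 was, against 34.6% of all genes. The exception was Mvk, the mevalonate kinase gene. By distance between profiles over the 6 arrays, with each gene centred on its own mean, 11 of the 17 were among the 100 genes most like Insig1, out of 22179. None was among the 100 most like Insig2. Hsd17b7, a 3-ketosteroid reductase gene of cholesterol synthesis, ranked 2nd and Hmgcs1, of mevalonate synthesis, ranked 10th, whereas Srebf2 ranked 273rd and Insig2 9425th. Of 17 SREBP-1c targets, 13 were highest in replicate 1 and 3 were among the 100 most like Insig1. These counts, and the naming of Mvk and Hmgcs1, were chosen after the values were seen. The arrays share their normalization, and the counts describe these 6 arrays only.

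**Figure D3:**
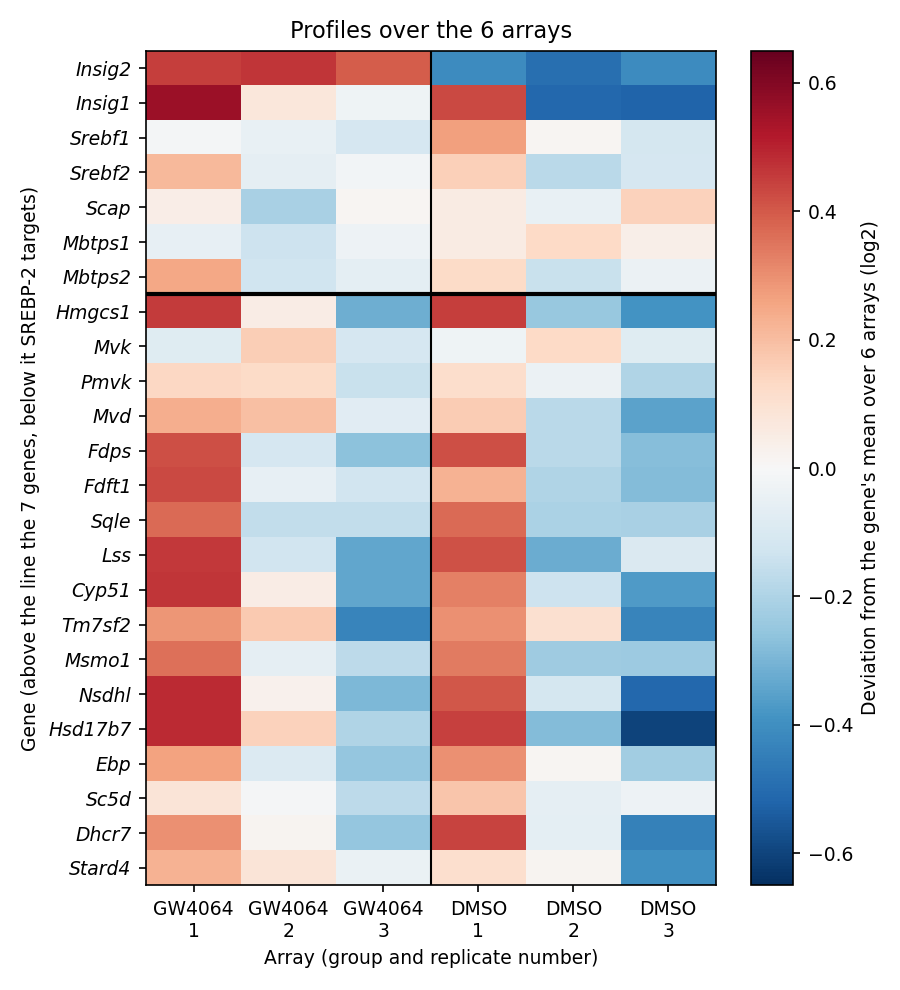
Deviation of each gene from its own mean over the 6 arrays (log2, red above and blue below), with the 7 genes above the black line, 17 SREBP-2 target genes below it, GW4064 arrays left and DMSO arrays right. Insig2 is split by treatment, while Insig1 and 16 of the 17 targets are highest in replicate 1 when the 2 groups are averaged.

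With predicted and small-RNA genes left out, the 5 genes with profiles most like Insig2 were Vmn1r157, Gclm, Iffo2, Ldlrad4 and Slc25a47. They lay at distances of 0.308 to 0.346 on the log2 scale over 6 arrays. Vmn1r157 averaged 3.47 with GW4064 and 2.75 with DMSO, under the median level of all genes, 4.20. Gclm encodes the modifier subunit of glutathione's first synthetic enzyme, and Slc25a47 a mitochondrial carrier. Slc25a47 was the 1 of these 5 called without the block (change 0.97, SE 0.11, adjusted p = 0.0343), and its adjusted p was 0.0618 with it. By the same rule the 5 most like Insig1 were Gml, Hsd17b7, Hsd17b6, Akap12 and Olfr584, at 0.266 to 0.366. None of them was called in either fit, and their changes were 0.18 to 0.41.

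The wider SREBP pathway was read from 12 lists with 125 measured genes of 142. None was called by limma over all genes, with or without the block, while 0.0496% of all genes were called higher. At an unadjusted p under 0.05, 4 were higher and 5 lower, 7.20% of them, against 5.66% of all genes, 2.6% higher and 3.06% lower. With the block 9 were higher and 5 lower, 11.2% of them, against 9.13% of all genes. Their median change was -0.0051, and that of all genes was -0.016.

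Genes of INSIG turnover and its membrane partners, 12 of 15 measured, were higher in 4 and lower in 8 by mean, with a median of -0.016. The 4 became 2 without DMSO replicate 2, 7 without DMSO replicate 1, 8 without DMSO replicate 3 and 9 without GW4064 replicate 2. Rnf139, a ubiquitin ligase gene whose product TRC8 binds INSIG, averaged 7.86 ± 0.05 with GW4064 and 8.03 ± 0.07 with DMSO, a difference of -0.17 (SE 0.09). Usp20, a deubiquitinase gene, had -0.15, Erlin1, a sterol-binding membrane protein gene, -0.12 and Faf2, which recruits the extraction machinery, 0.05. Genes of COPII transport, which carries SCAP and SREBP out of the endoplasmic reticulum, were higher in 6 and lower in 7 of 13, with a median of -0.00092. The 6 became 1 without DMSO replicate 2, 2 without GW4064 replicate 3, 3 without GW4064 replicate 1 and 9 without GW4064 replicate 2. Preb, the exchange factor gene that starts the coat, had the smallest p with -0.19 (SE 0.14).

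Other proteins cut by site-1 or site-2 protease had a median of -0.049, with 2 of 8 genes higher, or 4 without DMSO replicate 1. Creb3l3, the hepatic membrane-bound factor CREBH, had 0.17 (SE 0.11) and Atf6b, a paralogue of the stress factor ATF6, -0.13 (SE 0.13). The chaperone genes that ATF6 induces had a median of 0.039 with 5 of 7 higher, a count that was 0 without DMSO replicate 2, 1 without GW4064 replicate 3 and 7 without GW4064 replicate 2. Herpud1, of protein disposal, had -0.09 (SE 0.14) and Dnajc3 0.13 (SE 0.23). Relatives of site-1 protease had a median of -0.070, with 1 of 6 higher (0 without GW4064 replicate 1 or DMSO replicate 1, and 2 without GW4064 replicate 3), and Furin had -0.06 (SE 0.09). No member of these 3 lists had an unadjusted p under 0.05 in either fit.

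Other sterol-sensing domain genes had a median of -0.14 with 5 of 6 lower, and Ptch1, the Hedgehog receptor gene, had an unadjusted p of 0.0292 (change -0.29, SE 0.11). Partners of nuclear SREBP had a median of -0.026, with 6 of 12 higher. Lpin1, a phosphatidate phosphatase gene whose product limits nuclear SREBP, had -0.31 (SE 0.13, unadjusted p = 0.0365), and Fbxw7, of the ligase that degrades it, 0.16 (SE 0.11). Among regulators of Srebf1, 11 of 14 were lower and 3 higher, while 44.6% of all genes were higher, and the median was -0.046. The 3 became 5 with quantile normalization, up to 5 without single arrays and up to 7 without pairs. In 5 of the 14 all GW4064 arrays lay below all DMSO arrays, and in 1 above them, against 6.19% and 4.58% of all genes. Ppara, the fatty acid receptor, averaged 5.90 ± 0.21 with GW4064 and 6.38 ± 0.09 with DMSO, without overlap (change -0.48, SE 0.12, adjusted p = 0.601). Foxo1, an insulin-restrained factor, had -0.30 (SE 0.10) and Usf1, an E-box factor, -0.33 (SE 0.12), both also without overlap. Irs1, an insulin receptor substrate, had 0.26 (SE 0.12). At an unadjusted limma p under 0.05, Ppara, Foxo1 and Usf1 passed without the block, 3 of the 14, against 5.66% of all genes. With the block Irs1 passed as well, which made 4 of the 14, or 28.6%, against 9.13% of all genes. None of the 14 was called in either fit.

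SREBP-2 targets had a median change of 0.078, with 13 of 17 higher. None had an unadjusted p under 0.05 without the block, and Hsd17b7 (0.0291) and Mvd (0.0382) did with it, at limma adjusted p of 0.494 and 0.520. The largest was Hsd17b7, at 0.29 (SE 0.26). Mvd, a mevalonate pathway gene, had 0.24 (SE 0.15), Stard4, a sterol carrier, 0.18 (SE 0.14) and Fdft1, squalene synthase, 0.17 (SE 0.18). The count of higher genes rested on single arrays. Leaving out DMSO replicate 3 left 4 higher, GW4064 replicate 1 left 5 and GW4064 replicate 3 left 17, whereas 12 to 14 were higher when whole pairs were left out. Their mean level was 8.06, 7.77 and 7.53 in replicates 1, 2 and 3 with GW4064, against 8.04, 7.63 and 7.44 with DMSO.

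SREBP-1c targets had a median of 0.063 with 12 of 17 higher, a count that was 6 without DMSO replicate 3, 8 without GW4064 replicate 1 and 15 without GW4064 replicate 3. Fasn, fatty acid synthase, averaged 8.70 ± 0.26 with GW4064 and 8.18 ± 0.28 with DMSO and was higher by 0.50, 0.51 and 0.54 in the 3 pairs (SE 0.17, adjusted p = 0.771, 0.151 with the block). Agpat2, of phosphatidic acid synthesis, had 0.34 (SE 0.11, adjusted p = 0.761), without overlap of the groups. Pnpla3, a lipid droplet protein gene, had 0.37 in each pair to within 0.01 (0.37, 0.37 and 0.38, SE 0.17), and Gpam, of glycerolipid synthesis, -0.17 (SE 0.12). At an unadjusted limma p under 0.05, Fasn and Agpat2 passed without the block. With the block Pnpla3 passed as well, which made 3 of the 17, or 17.6%, against 9.13% of all genes. None of these genes was called in either fit.

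LXR targets, which respond to oxysterols, had a median of 0.0033 with 4 of 8 higher. Abcg5 and Abcg8, which together form the sterol exporter, had 0.47 (SE 0.13, adjusted p = 0.641) and 0.29 (SE 0.10, adjusted p = 0.770), each without overlap of the groups, and Abca1 had -0.09 (SE 0.10). Mylip, of the ligase that degrades the LDL receptor, had -0.18 (SE 0.10). Enzymes that make or modify oxysterols, some of which INSIG binds, had a median of 0.043 with 3 of 6 higher. Cyp3a11, a drug-metabolizing P450, had the largest value, 0.44 (SE 0.37), and Ch25h, the cholesterol 25-hydroxylase, 0.14 (SE 0.10). Cyp7b1 had -0.16 (SE 0.12). In bulk RNA such as this, a change in the number of cells of a type and a change in RNA per cell cannot be told apart.

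**Figure D4:**
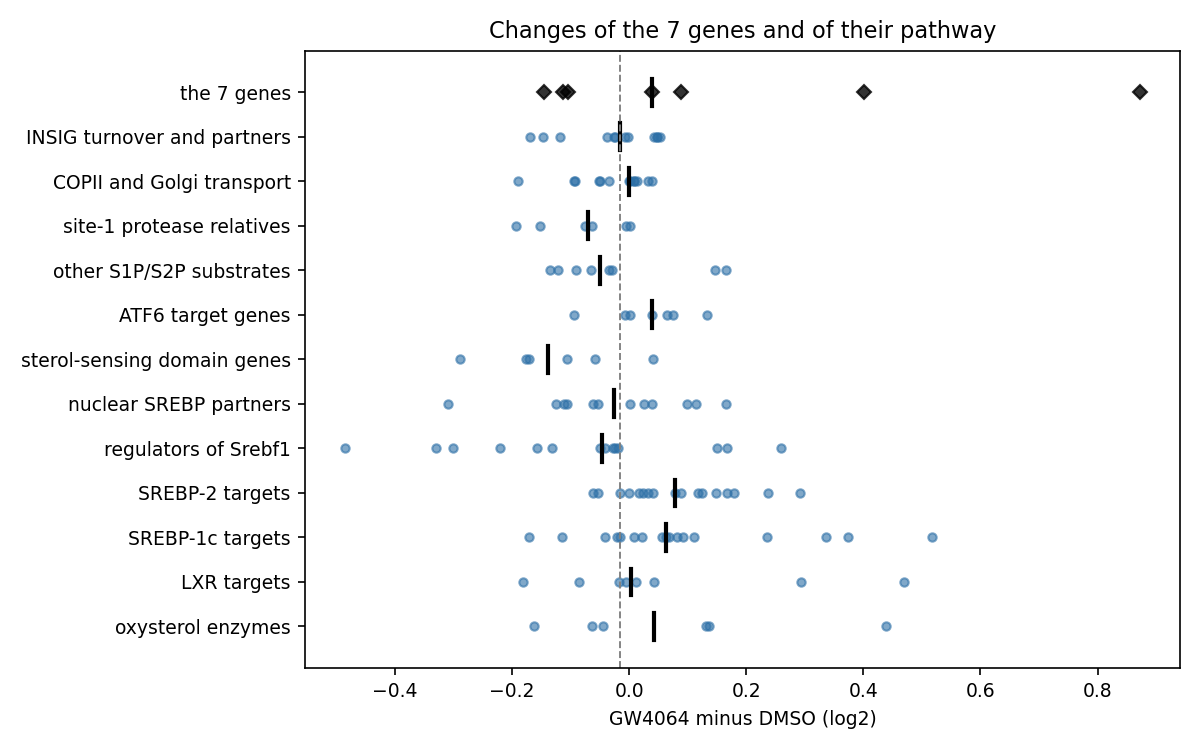
Change with GW4064 relative to DMSO (log2) of the 7 genes (black diamonds) and of the measured genes of 12 pathway lists (blue points), with each row's median as a black bar and the median of all genes, -0.016, as a dashed line. Insig2, at 0.87, lies to the right of every listed gene.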

How the data were processed

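RNA from 6 cultures was measured on Affymetrix MoGene-2_0-st arrays, per the labels. The authors deposited 1 log2 intensity for each probe set and array, and RMA and Partek are named per the submitters' processing notes. The log base is inferred, since all values lie between 0.936 and 13.1. Of 41345 probe sets, 23521 carry 1 symbol in the platform annotation, 1814 several and 16010 none. The brightest probe set was kept for each of 22180 genes. A probe set that names Mbtps2 beside another gene was not used. The genome build of the array annotation is not given in the sources used here. The sequences and the gene order shown are from GRCm38.p6.

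GW4064 was compared with DMSO with limma 3.58.1 (lmFit, eBayes) in R 4.3.3, without a block or filter, and Benjamini-Hochberg adjustment over all genes. A call is an adjusted p under 0.05. Profiles were compared by Euclidean distance. The fit was tried on simulated data without a replicate effect, so the correlation of same-numbered arrays given below was not covered. Nothing states that the arrays of a group come from separate animals, so p-values measure the spread between these arrays, and their number limits the precision.

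Same-numbered arrays correlated in their deviations from the group means at 0.26, 0.34 and 0.45, above the 0.1 asked for, and the numbers come from the titles. The genes, lists and tests were chosen with earlier results of these data known. Genes named are the 7, Abcb11, Nr0b2 and Nr1h4, up to 4 genes of a list with the smallest p, the 5 nearest profiles, flanking genes and Mir33. Predicted and small-RNA genes were left out of the 5 nearest profiles. Alternatives were the block, 2 normalizations, 2 filters, another variance prior, other probe set rules, and leaving out arrays or pairs.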

Additional observations from a re-analysis of the deposited data

How the results depend on the processing

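The replicate block left each of the 7 genes on its side of the threshold, with 16 genes higher and 2 lower over the whole table, against 11 and 0 without it, and 8 called in both fits. Genes called lower numbered 1 without genes under the median level and 3 with a trended, robust prior. With all probe sets as features 2 were called higher, and Insig2, at 0.87, was lost (adjusted p = 0.147). Leaving out single arrays or pairs gave 2 to 5 genes higher and 0 to 1 lower. There Insig2 kept a change of 0.83 to 0.91 and missed the threshold each time (adjusted p = 0.0734 to 0.636), with fewer arrays in the fit. In the 7 settings with all arrays and named genes, the block among them, it was called (adjusted p = 0.00193 to 0.0384). The other 6 genes passed in none of 102 values. Mbtps2 changed sign when arrays were left out (-0.076 to 0.11). Quantile normalization turned the medians of COPII transport (0.016) and nuclear SREBP partners (0.0070). With arrays or pairs left out the medians turned for INSIG turnover (-0.071 to 0.048), COPII transport (-0.086 to 0.025), ATF6 targets (-0.18 to 0.20), SREBP-2 targets (-0.073 to 0.27), SREBP-1c targets (-0.030 to 0.15), LXR targets (-0.064 to 0.067) and oxysterol enzymes (-0.0021 to 0.069). The cause of these changes was not tested, and no gene of the pathway lists was called with the block, with quantile normalization or with arrays or pairs left out, the settings in which the lists were read.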

Other observations

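The genes that flank the 7 on their chromosomes (RefSeq gene order, GRCm38.p6) were read for comparison. Beside Insig2 on chromosome 1, the coiled-coil gene Ccdc93 read 6.73, 6.80 and 6.90 with GW4064, against 6.45, 6.63 and 6.37 with DMSO. Its groups did not overlap, as in 10.8% of all genes, and it did not pass (change 0.33, SE 0.11, unadjusted p = 0.0130, limma adjusted p = 0.768, 0.429 with the replicate block). On the other side of Insig2, the long noncoding RNA gene Celrr had -0.14 (SE 0.10). Beside Scap on chromosome 9, Elp6, a gene of the elongator complex, averaged 4.72 ± 0.12 with GW4064 and 4.39 ± 0.07 with DMSO (change 0.32, SE 0.10, adjusted p = 0.751), and Ptpn23, a phosphatase gene on the other side, had -0.11 (SE 0.09). The flanking genes of the other 5 had changes between -0.15 for Tom1l2, beside Srebf1, and 0.13 for Smpx, beside Mbtps2, and none was called in either fit.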
